A study of Mus musculus with 20 samples.

Results

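Immediate early and dissociation genes are described here across 3 cell populations of mouse muscle. The 42 members were chosen by gene symbol, as genes known to switch on quickly under growth signals or cell stress. Earlier results of these data were known when these and the comparison lists were chosen. Counts set against all genes are therefore descriptions and not independent support. All 42 were found among the 24393 genes of the count table and all 42 were among the 14179 genes that could be tested. They comprise 23 transcription factors, 16 other regulators such as phosphatases and RNA-binding proteins, and 3 heat shock genes. RNA was sequenced from populations labelled FAP, SMP and Misc, taken from quadriceps, tibialis anterior and gastrocnemius of mice labelled DKO or WT. By common usage FAP are fibro/adipogenic progenitors, stromal cells of the muscle interstitium, and SMP are skeletal muscle progenitors, which include satellite cells. The design text lists a population FB where the labels have Misc, and the name Misc is kept here. FAP and Misc each had 4 DKO and 4 WT libraries, and SMP had 2 of each genotype. The labels do not name the genes of the DKO. Age, strain and sex of the mice, any pooling, and the dissociation and sorting of the cells were likewise not given in the sources used here.

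Immediate early genes respond to a signal within minutes without new protein synthesis. Serum response factor, CREB and their kinases switch on the Fos, Jun, Egr, Klf and Nr4a factors, which in turn act on slower genes, while phosphatases such as the Dusp family and mRNA-destabilising proteins such as Zfp36 end the signal. Heat shock genes answer to heat shock factor when unfolded protein accumulates. Both kinds are known to rise in muscle stem cells and stromal cells while tissue is digested into single cells. What dissociation contributed to the levels below was not tested.

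Promoter sequences from RefSeq show the elements through which these 2 kinds of gene are commonly switched on. Each window covers the 250 bases before the transcription start, 5′ to 3′. Fos, Fosb and Btg2 are shown because they fell in every population, and Dusp5 because it rose in FAP and Misc. Capitals mark the CRE core of CREB sites, TGACG or its reverse CGTCA, and in Dusp5 also the CArG box bound by serum response factor. In Btg2 the 2 matches overlap as TGACGTCA, and in Dusp5 the 2 CArG boxes adjoin. Zfp36, Dnajb1 and Nfkbiz also fell in every population and are not shown. Zfp36 had a CArG box and no CRE core, Dnajb1 had a CRE core, and Nfkbiz is not among the members with a match.
Fos (GRCm38.p6 chr12:85473640-85473889, plus strand): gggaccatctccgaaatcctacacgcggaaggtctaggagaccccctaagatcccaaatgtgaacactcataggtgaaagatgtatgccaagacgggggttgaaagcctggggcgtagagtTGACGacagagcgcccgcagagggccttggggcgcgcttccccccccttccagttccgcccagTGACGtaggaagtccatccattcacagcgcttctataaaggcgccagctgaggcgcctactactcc
Fosb (GRCm38.p6 chr7:19310046-19310295, minus strand): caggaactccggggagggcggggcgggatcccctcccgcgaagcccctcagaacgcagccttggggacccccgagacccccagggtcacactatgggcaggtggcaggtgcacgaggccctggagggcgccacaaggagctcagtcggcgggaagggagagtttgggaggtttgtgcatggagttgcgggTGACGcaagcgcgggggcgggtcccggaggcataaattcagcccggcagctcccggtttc
Btg2 (GRCm38.p6 chr1:134079156-134079405, minus strand): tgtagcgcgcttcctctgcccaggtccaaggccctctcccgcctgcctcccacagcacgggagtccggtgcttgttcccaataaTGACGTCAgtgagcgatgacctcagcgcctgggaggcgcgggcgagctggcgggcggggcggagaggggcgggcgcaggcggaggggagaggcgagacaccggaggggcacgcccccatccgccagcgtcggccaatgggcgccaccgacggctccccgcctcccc
Dusp5 (GRCm38.p6 chr19:53528895-53529144, plus strand): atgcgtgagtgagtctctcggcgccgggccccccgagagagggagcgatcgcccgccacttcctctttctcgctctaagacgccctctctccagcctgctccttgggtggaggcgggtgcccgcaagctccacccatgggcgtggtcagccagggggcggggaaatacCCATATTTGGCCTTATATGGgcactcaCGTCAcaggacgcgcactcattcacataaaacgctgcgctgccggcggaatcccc

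The windows of Hspa1a and Hspa1b are shown because reads of this gene pair are hard to tell apart. Capitals mark a heat shock element pair, GAANNTTC.
Hspa1a (GRCm38.p6 chr17:34972157-34972406, minus strand): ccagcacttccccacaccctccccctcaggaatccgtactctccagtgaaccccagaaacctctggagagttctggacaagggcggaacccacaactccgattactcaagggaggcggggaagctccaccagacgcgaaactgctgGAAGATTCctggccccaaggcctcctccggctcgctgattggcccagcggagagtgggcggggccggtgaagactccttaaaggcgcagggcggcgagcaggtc
Hspa1b (GRCm38.p6 chr17:34959239-34959488, minus strand): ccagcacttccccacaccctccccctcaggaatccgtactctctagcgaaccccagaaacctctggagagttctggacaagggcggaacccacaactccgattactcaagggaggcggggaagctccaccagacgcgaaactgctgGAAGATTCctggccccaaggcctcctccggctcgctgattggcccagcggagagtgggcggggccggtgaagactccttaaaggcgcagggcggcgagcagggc

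These last windows were identical at 247 of 250 positions. A window was found for 34 of the 42 members. On both strands, the CRE core occurred in 19 of 34 members with a window against 19.8% of all genes, and the EGR site GCGNGGGCG in 11 of 34 against 5.33%. The CArG box was found in 3 of 34 (Dusp5, Egr2 and Zfp36) against 1.62%, the AP-1 site TGANTCA in 1 of 34 (Csrnp1) against 7.82%, and the heat shock element pair, GAANNTTC or TTCNNGAA, in 6 of 34 against 14.6%. A match describes these letters in this window and is not a measured binding site.

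Libraries held 5826000 to 17730111 counts, with SMP DKO the shallowest at 5826000 to 6124928. DKO is read here, as an assumption from background, as loss of desmin (Des) and nesprin 1 (Syne1). Des lay at 54.2 to 75.4 CPM in SMP DKO against 171 to 184 in SMP WT, at 3.43 to 5.33 against 14.2 to 18.3 in FAP, and at 1.37 to 2.27 against 2.16 to 4.74 in Misc, where the ranges overlapped. Syne1 lay at 35.9 to 37.0 against 69.2 to 79.5 in SMP, 37.8 to 55.3 against 52.7 to 59.8 in FAP, where the ranges overlapped, and 59.2 to 75.5 against 85.5 to 129.8 in Misc. The deleted exons were not given in the sources used here, so these counts check the labels only in part. Summed FAP markers reached 74238 to 94700.4 CPM in DKO and 74174 to 76572 in WT of FAP. Satellite cell markers in SMP summed to 1981 to 2079 (DKO) and 2123 to 2146 (WT). Tendon and other fibroblast markers in Misc summed to 94424 to 127592 (DKO) and 132996 to 157047 (WT), ranges that did not overlap. Of these 8 markers, 2 were called higher and 4 lower in Misc DKO, and their part in the Misc results was not tested. One library stood apart. SMP DKO replicate 2 held 10655 CPM of FAP markers against 2039 in replicate 1, 315 against 31.5 of leukocyte markers and 620.0 against 116 of endothelial markers. Member effect sizes in SMP are therefore also given without it. Any fit without 1 SMP library leaves a lone sample in its group, whose spread cannot be measured. Calls lost in such fits are given as a caution only. The satellite cell markers of SMP did not all keep their level. Pax7 stood at 100.2 to 125 CPM in DKO and 262 to 271 in WT (−1.24 ± 0.34, adjusted p = 0.017), and Myod1 at 338 to 353 and 132 to 140.3 (1.35 ± 0.40, adjusted p = 0.025), in log2. With Des, 1 of the 8 was called higher and 2 lower. Calcr, at 98.7 to 157 and 292 to 301, was not called (−1.21 ± 0.47, adjusted p = 0.076). Without SMP DKO replicate 2, Pax7 (−1.10 ± 0.43, adjusted p = 0.092) and Myod1 (1.31 ± 0.48, adjusted p = 0.078) were not called. The part of these shifts in the SMP results was not tested. Muscle fibre markers were higher in both SMP DKO libraries (209 and 526 CPM) than in SMP WT (38.3 to 51.2), with 7 of 8 genes called higher, and their part in the SMP results was not tested. In bulk RNA, fewer cells of a type and less RNA per cell cannot be told apart.

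The members took a large share of all counts. Together they made up 8.95 to 10.004% of counts in SMP WT, 5.85 to 6.24% in SMP DKO, 4.85 to 5.28% in FAP WT, 4.86 to 5.90% in FAP DKO, 4.98 to 5.76% in Misc WT and 5.38 to 6.39% in Misc DKO. The 3 heat shock genes alone held 5.17 to 5.94% of counts in SMP WT and 1.69 to 1.89% in FAP WT, and the 23 transcription factors 2.85 to 3.09% and 2.17 to 2.46%. Per kilobase of exon, the highest mean level over the 20 libraries was that of Hspa1b (4699 CPM per kb) and Hspa1a (3826), the inducible HSP70 chaperones. Fos (1501) and Egr1 (1445) followed, ahead of Jun (688) and Junb (647). The lowest were Fosl1 (3.40), Dusp5 (7.27), Egr3 (14.5) and Klf10 (20.6). Levels differed between groups. Fos stood at 2235 CPM per kb in Misc WT and 553 in SMP DKO, while Hspa1b stood at 3192 and 5590.5.

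**Figure D1:**
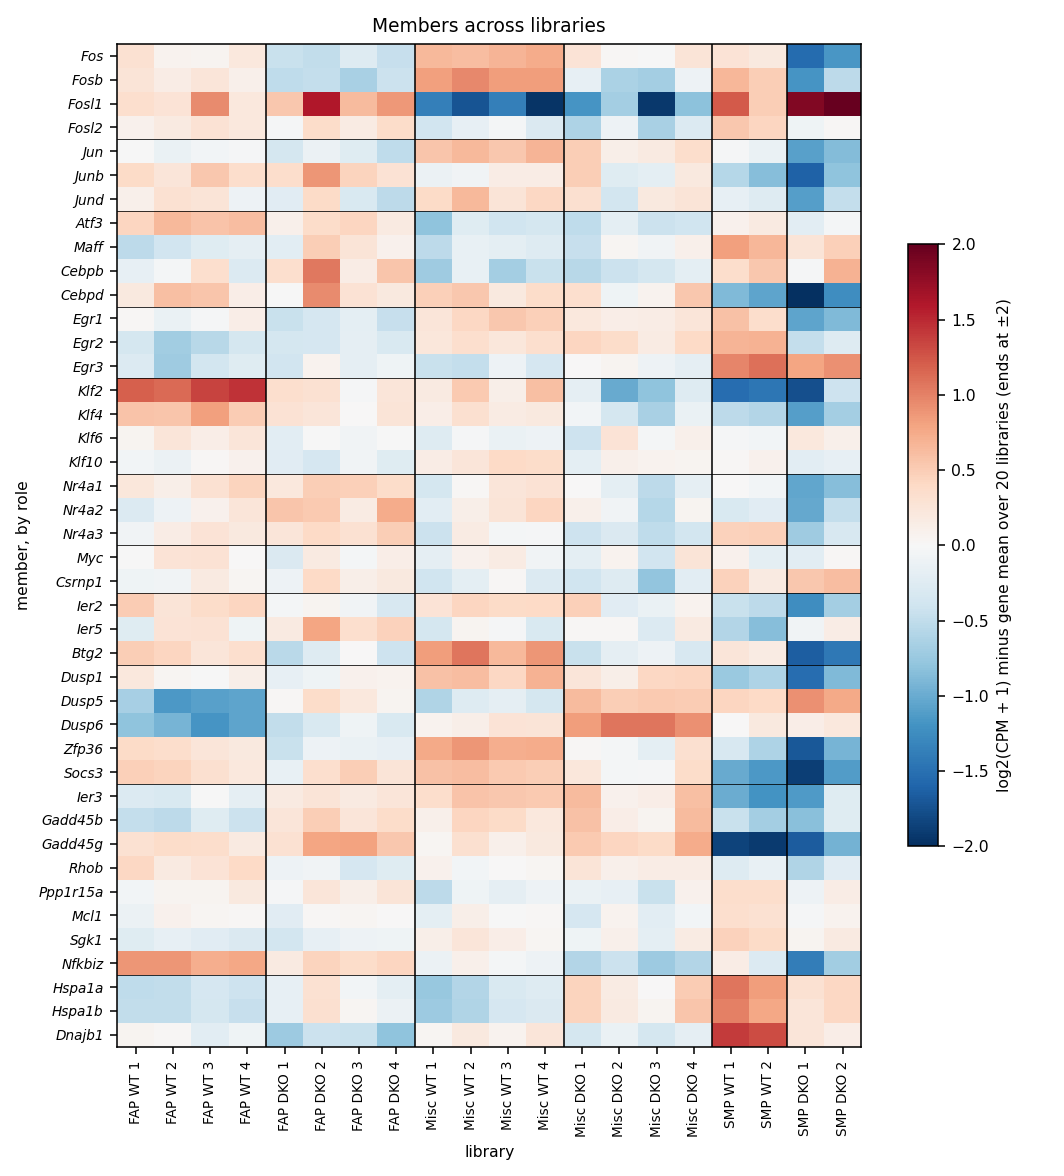
Level of the 42 members (rows, by role) in the 20 libraries (columns, by group), as log2(CPM + 1) minus the mean of the gene over all libraries, with colours ending at ±2. Fos, Fosb and Btg2 are paler or bluer in every DKO block than in its WT block, and the 3 heat shock genes at the bottom are reddest in SMP WT.

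The first comparison asked how the DKO changed the members in each population. In FAP, 6 of 42 members were higher and 11 lower in DKO, against 5.58% and 5.14% of all genes tested. In Misc, 4 were higher and 12 lower, against 9.15% and 9.55% of all genes. In SMP, 2 were higher and 15 lower, against 11.8% and 11.2%. A member counted as called at an adjusted p under 0.05 in edgeR (quasi-likelihood F test, Benjamini-Hochberg over all 14179 genes). With 2 libraries a group, DKO and WT ranges in SMP did not overlap for 33 of 42 members, though 17 were called. The share of such genes over all genes is not given here. Statements on ranges below are therefore descriptions and not evidence of a change. Fos, Fosb, Btg2, Zfp36, Dnajb1 and Nfkbiz were lower in all 3 populations. Dusp5 and Dusp6 were higher in FAP and Misc, as was Hspa1b, which was lower in SMP. The median log2 difference of the members was 0.03 in FAP, −0.15 in Misc and −0.38 in SMP, beside −0.01, 0.01 and 0.01 over all genes tested. By class, 5 of 23 transcription factors fell and 2 rose in FAP, 7 fell and none rose in Misc, and 8 fell and none rose in SMP. Of the calls, 3 higher and 7 lower in FAP, 4 and 8 in Misc, and 0 and 10 in SMP held with each library of the compared groups left out in turn. In FAP the count of called members went from 17 to 11 without FAP WT replicate 1, and in SMP from 17 to 10 when SMP libraries alone were fitted. Leaving out SMP DKO replicate 2 leaves 1 library in that group, so no count is given for it and values are given by member.

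**Figure D2:**
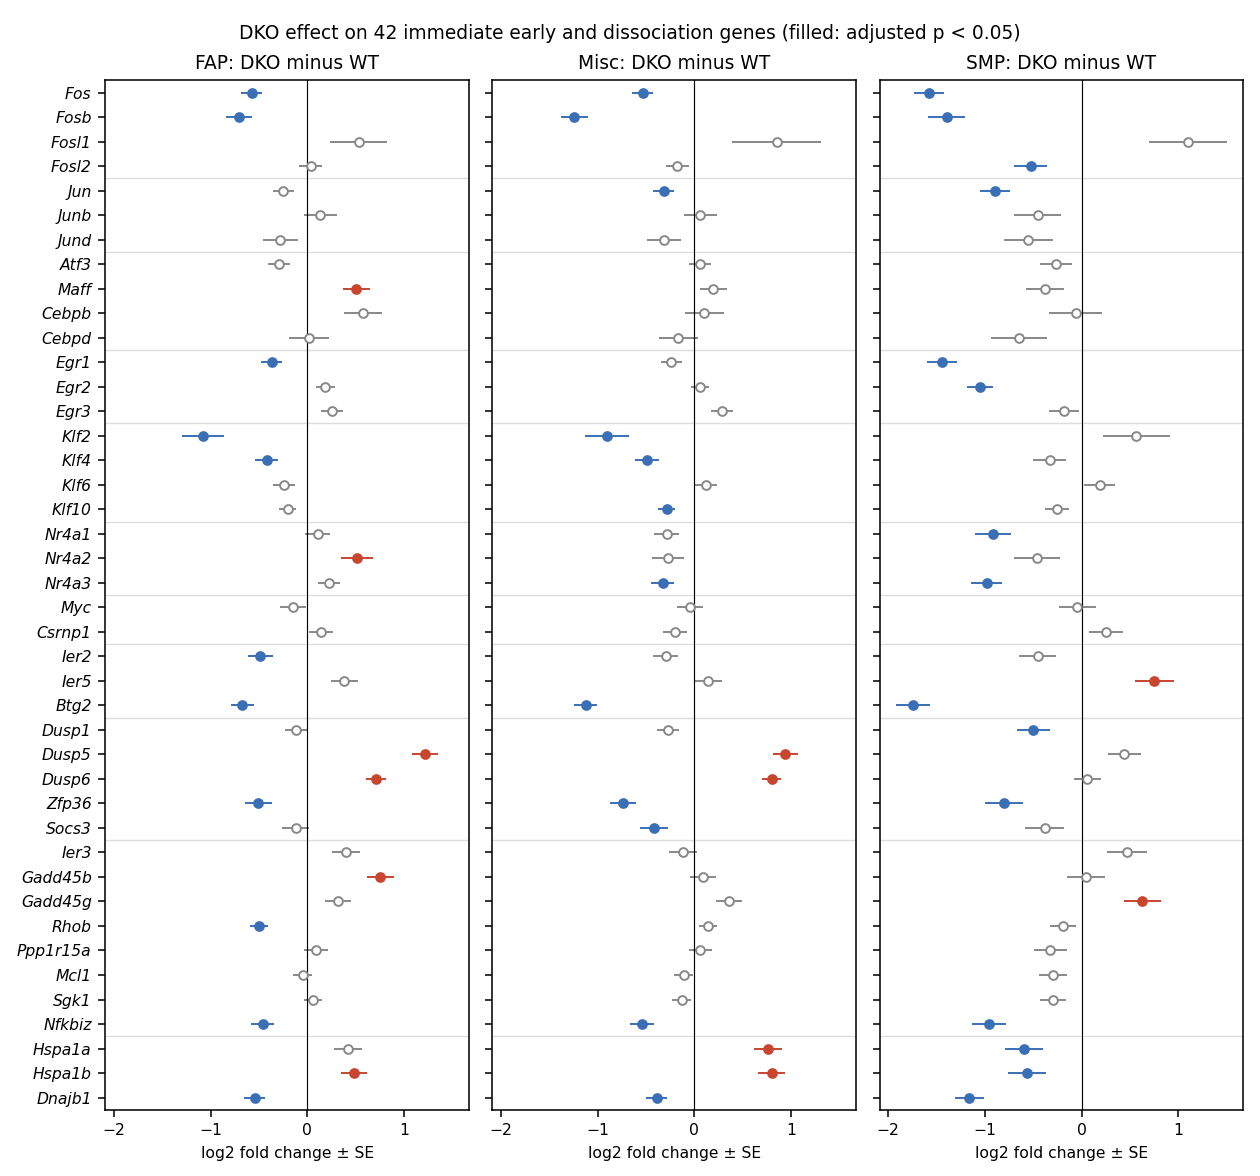
Log2 difference of DKO minus WT with its standard error (x axis) for each of the 42 members (y axis, by role) in FAP, Misc and SMP. Filled points passed an adjusted p of 0.05, red higher and blue lower in DKO; Dusp5 and Dusp6 stand to the right in FAP and Misc, and Fos, Fosb and Btg2 to the left in all 3 panels.

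Among the AP-1 factors, Fos and Fosb fell in DKO in each population. Fos, which pairs with Jun proteins to form AP-1, measured 2426, 2348, 2758 and 2391 CPM in the DKO libraries of FAP, beside 4058, 3476, 3410.0 and 3823 in those of WT. Misc DKO libraries held 3961, 3342, 3291 and 3925 and Misc WT 5158, 5063, 5287 and 5515, while SMP DKO held 1132 and 1469.8 and SMP WT 3988 and 3772. In each population, every Fos value in DKO lay below the WT range. Fos differed by −0.57 ± 0.11 (adjusted p = 0.0012) in FAP, by −0.53 ± 0.11 (adjusted p = 0.0012) in Misc and by −1.58 ± 0.16 (adjusted p = 6.3e-07) in SMP, in log2 of DKO over WT. Fos was thus 1.49-fold lower in FAP, 1.45-fold in Misc and 2.98-fold in SMP. Fosb, a close relative of Fos, had 962, 982, 879.8 and 1024 CPM in FAP from DKO and 1637, 1530.2, 1631 and 1468 in FAP from WT. Fosb in Misc was at 1221, 886, 855 and 1273 in DKO and 2423, 2686, 2448 and 2453 in WT, and in SMP at 605 and 952 in DKO and 2171 and 1929 in WT. All DKO libraries lay below the WT libraries of their population. On the log2 scale, DKO minus WT for Fosb came to −0.70 ± 0.14 (adjusted p = 0.0012) in FAP, −1.24 ± 0.14 (adjusted p = 5.7e-07) in Misc and −1.40 ± 0.19 (adjusted p = 2.7e-05) in SMP. Leaving out SMP DKO replicate 2 gave SMP values of −1.79 for Fos and −1.77 for Fosb.

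Jun, the AP-1 partner, stood at 1631, 1932, 1756 and 1464 CPM in the FAP DKO libraries and at 2086, 1906, 2001 and 2053 in FAP WT. Its Misc values came to 2947, 2258, 2355 and 2664 for DKO and 3071, 3276, 3038 and 3359 for WT, and its SMP values 987 and 1140.0 for DKO and 2052 and 1894 for WT. Jun in DKO stood below all WT libraries in Misc and SMP, with ranges that overlapped in FAP. DKO minus WT, in log2, gave −0.25 ± 0.11 (adjusted p = 0.15) for FAP, −0.32 ± 0.11 (adjusted p = 0.042) for Misc and −0.89 ± 0.15 (adjusted p = 0.00029) for SMP. Jun fell in Misc and SMP. The Jun call in Misc was lost without Misc DKO replicate 2 or 3 or any Misc WT replicate (adjusted p from 0.051 to 0.14). It was also lost with the compared groups alone in the fit (adjusted p = 0.056). The value of Jun in SMP was −1.01 without SMP DKO replicate 2. Fosl2, a further Fos relative, fell in SMP, at −0.52 ± 0.17 (adjusted p = 0.028) in log2, a call lost without SMP DKO replicate 1 or 2 or SMP WT replicate 1 or 2 (adjusted p from 0.054 to 0.14) and with the compared groups alone in the fit (adjusted p = 0.057). Junb (0.14 ± 0.17 (adjusted p = 0.68) in FAP, 0.06 ± 0.17 (adjusted p = 0.84) in Misc, −0.45 ± 0.24 (adjusted p = 0.19) in SMP) and Jund (−0.28 ± 0.18 (adjusted p = 0.36), −0.32 ± 0.18 (adjusted p = 0.24) and −0.55 ± 0.25 (adjusted p = 0.12)) were not called in any population. Without SMP DKO replicate 2 their SMP values were −0.92 and −0.91. Fosl1, the least abundant member, was not called (0.53 ± 0.30 (adjusted p = 0.28), 0.85 ± 0.46 (adjusted p = 0.22) and 1.10 ± 0.40 (adjusted p = 0.051)), with 0.454 to 1.18 CPM in Misc WT and 19.2 to 22.1 in SMP DKO.

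The EGR zinc finger factors, which growth factor and serum signals induce, fell in SMP for Egr1 and Egr2, and Egr1 also fell in FAP. Egr1, the best known of them, measured 4536, 4942, 5408 and 4501 CPM in the DKO libraries of FAP, beside 6336, 5662, 6133 and 6826 in those of WT. In Misc it lay at 7174, 6824, 6873 and 7373 in DKO and at 7334, 8258, 9059 and 8685 in WT, and for SMP 2993 and 3372 in DKO and 9348 and 7965 in WT. DKO libraries lay below all WT libraries in FAP and SMP, and the genotypes overlapped in Misc. As log2 differences these were −0.36 ± 0.11 (adjusted p = 0.031) in FAP, −0.24 ± 0.11 (adjusted p = 0.13) in Misc and −1.44 ± 0.16 (adjusted p = 1.5e-06) in SMP. The FAP call was lost without FAP DKO replicate 1, 2 or 4 or FAP WT replicate 1, 3 or 4 (adjusted p from 0.055 to 0.11). Egr2, a factor of myelinating and immune cells, had 245, 249, 276 and 255 CPM in FAP from DKO and 246, 194, 214 and 246 in FAP from WT. Misc DKO libraries held 426, 404, 352 and 414 and Misc WT 368, 396, 368 and 397, while SMP DKO held 225 and 263 and SMP WT 503 and 509. For Egr2, DKO values were below all WT libraries in SMP, whereas they overlapped in FAP and Misc. The log2 difference of DKO minus WT was 0.19 ± 0.10 (adjusted p = 0.22) in FAP, 0.06 ± 0.09 (adjusted p = 0.70) in Misc and −1.05 ± 0.14 (adjusted p = 1.1e-05) in SMP. With SMP DKO replicate 2 left out, Egr1 stood at −1.54 and Egr2 at −1.18 in SMP. Egr3 was not called (0.25 ± 0.11 (adjusted p = 0.16), 0.29 ± 0.11 (adjusted p = 0.076) and −0.18 ± 0.15 (adjusted p = 0.41)).

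The KLF factors Klf2 and Klf4 fell in FAP and in Misc. Klf2, known for its role in endothelium and in resting lymphocytes, stood at 70.8, 69.1, 54.9 and 65.7 CPM in the FAP DKO libraries and at 128, 124, 144 and 153 in FAP WT. Klf2 in Misc was at 49.3, 27.3, 31.4 and 46.4 in DKO and 62.9, 80.2, 60.7 and 84.6 in WT, and in SMP at 15.7 and 41.6 in DKO and 18.6 and 19.7 in WT. Each DKO library was below all WT libraries in FAP and Misc, and the ranges overlapped in SMP. Klf2 differed by −1.08 ± 0.22 (adjusted p = 0.0042) in FAP, by −0.90 ± 0.23 (adjusted p = 0.0098) in Misc and by 0.57 ± 0.34 (adjusted p = 0.25) in SMP, in log2 of DKO over WT. In SMP the Klf2 values were low in 3 of 4 libraries, and SMP DKO replicate 2, the library rich in endothelial markers, was the highest. Of the endothelial markers, Tek was lower in DKO beside Klf2. The sum of all 8 in FAP was 144 to 246 CPM (DKO) and 309 to 393 (WT), and 48.0 to 79.9 and 89.8 to 125 in Misc. In each of these comparisons 1 of the 8, Tek, was called lower and none higher, and the ranges of Pecam1, Cdh5, Kdr, Emcn, Flt1, Vwf and Cldn5 overlapped between genotypes. Tek stood in FAP at 110.1 to 165 CPM (DKO) and 270.2 to 289.5 (WT), and at 19.2 to 27.6 and 55.9 to 75.5 in Misc. Cldn5 was at 0 in at least 1 FAP DKO library, and no other of the 8 was at 0 in these 2 populations. The part of endothelial RNA in the Klf2 result was not tested. Klf4, a regulator of growth arrest and cell identity, measured 920.2, 893, 759 and 907 CPM in the DKO libraries of FAP, beside 1129.6, 1116, 1332 and 1072 in those of WT. Its Misc values came to 726, 592, 484 and 689 for DKO and 829.8, 949, 852 and 869 for WT, and its SMP values 353 and 470.4 for DKO and 527 and 506 for WT. In each population, every Klf4 value in DKO lay below the WT range. On the log2 scale, DKO minus WT for Klf4 came to −0.42 ± 0.12 (adjusted p = 0.026) in FAP, −0.49 ± 0.12 (adjusted p = 0.0056) in Misc and −0.33 ± 0.17 (adjusted p = 0.17) in SMP. The FAP call of Klf4 was lost without FAP DKO replicate 2, 3 or 4 or FAP WT replicate 3 (adjusted p from 0.0502 to 0.097). Klf10, induced by TGF-beta, fell in Misc, at −0.28 ± 0.09 (adjusted p = 0.024) in log2, a call lost without Misc DKO replicate 1 or Misc WT replicate 3 (adjusted p from 0.051 to 0.074) and with the compared groups alone in the fit (adjusted p = 0.064). Klf6 was not called (−0.24 ± 0.11 (adjusted p = 0.20), 0.12 ± 0.11 (adjusted p = 0.50) and 0.19 ± 0.16 (adjusted p = 0.42)).

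Among the NR4A orphan nuclear receptors, Nr4a1 and Nr4a3 fell in SMP and Nr4a2 rose in FAP. Nr4a1, an orphan receptor induced by many signals, had 1580.2, 1918, 1896 and 1755 CPM in FAP from DKO and 1594, 1486, 1685 and 1869.7 in FAP from WT. In Misc it lay at 1371, 1191, 948 and 1204 in DKO and at 1074, 1385, 1624 and 1671 in WT, and for SMP 667 and 759 in DKO and 1367 and 1323 in WT. DKO libraries lay below all WT libraries in SMP, and the genotypes overlapped in FAP and Misc. DKO minus WT, in log2, gave 0.11 ± 0.13 (adjusted p = 0.67) for FAP, −0.29 ± 0.13 (adjusted p = 0.14) for Misc and −0.91 ± 0.19 (adjusted p = 0.0014) for SMP. Nr4a3, its relative, stood at 361, 402, 378 and 427 CPM in the FAP DKO libraries and at 289, 338, 366 and 349 in FAP WT. Misc DKO libraries held 227, 249.9, 214 and 236 and Misc WT 226, 341, 297 and 299.7, while SMP DKO held 184 and 243 and SMP WT 419 and 425. For Nr4a3, DKO values were below all WT libraries in SMP, whereas they overlapped in FAP and Misc. As log2 differences these were 0.22 ± 0.11 (adjusted p = 0.23) in FAP, −0.33 ± 0.12 (adjusted p = 0.048) in Misc and −0.98 ± 0.16 (adjusted p = 0.00021) in SMP. Nr4a1 and Nr4a3 fell in SMP, with −1.02 and −1.20 without SMP DKO replicate 2. The Nr4a3 call in Misc was lost without Misc DKO replicate 1, 2, 3 or 4 or Misc WT replicate 2, 3 or 4 (adjusted p from 0.052 to 0.15) and with DESeq2 size factors (adjusted p = 0.0503) and with the compared groups alone in the fit (adjusted p = 0.061). Nr4a2 rose in FAP, at 0.51 ± 0.16 (adjusted p = 0.0496) in log2, and this call was lost without FAP DKO replicate 1, 2 or 4 or FAP WT replicate 1, 2 or 3 (adjusted p from 0.072 to 0.16) and with DESeq2 size factors (adjusted p = 0.052) and with no filter on low counts (adjusted p = 0.064). It was not called in Misc (−0.27 ± 0.17 (adjusted p = 0.28)) or in SMP (−0.46 ± 0.24 (adjusted p = 0.17)).

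Of the 6 other factors, 1 (Maff) passed the test, in FAP. Atf3, a stress-induced bZIP factor, measured 1015, 1220.0, 1282 and 1077 CPM in the DKO libraries of FAP, beside 1272, 1480.0, 1409 and 1460.1 in those of WT. Atf3 in Misc was at 665, 826, 707 and 723 in DKO and 544, 799, 716 and 743 in WT, and in SMP at 816 and 919 in DKO and 1008 and 1073 in WT. Each DKO library was below all WT libraries in SMP, and the ranges overlapped in FAP and Misc. The log2 difference of DKO minus WT was −0.29 ± 0.12 (adjusted p = 0.11) in FAP, 0.06 ± 0.12 (adjusted p = 0.77) in Misc and −0.26 ± 0.16 (adjusted p = 0.25) in SMP. Myc, a driver of growth, had 339, 469.6, 407 and 454 CPM in FAP from DKO and 413, 505, 511 and 417 in FAP from WT. Its Misc values came to 362, 435, 318 and 499 for DKO and 366, 443, 465 and 395 for WT, and its SMP values 360.3 and 421 for DKO and 443 and 363 for WT. The DKO and WT ranges of Myc overlapped in all 3 populations. Myc differed by −0.15 ± 0.13 (adjusted p = 0.55) in FAP, by −0.05 ± 0.13 (adjusted p = 0.84) in Misc and by −0.05 ± 0.19 (adjusted p = 0.89) in SMP, in log2 of DKO over WT. Neither Atf3 nor Myc was called in any population. Maff, a small Maf protein, rose in FAP, at 0.51 ± 0.14 (adjusted p = 0.018) in log2, a call lost without FAP DKO replicate 2 or FAP WT replicate 1 or 2 (adjusted p from 0.051 to 0.10). Cebpb (0.58 ± 0.20 (adjusted p = 0.068) in FAP), Cebpd (−0.65 ± 0.29 (adjusted p = 0.12) in SMP) and Csrnp1 (0.25 ± 0.18 (adjusted p = 0.32) in SMP) were not called in any population. The differences of these 3 over all populations lay between −0.65 and 0.58. Cebpd in SMP stood at −1.17 without SMP DKO replicate 2.

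Among the regulators of growth and signal decay, Btg2 and Zfp36 fell and 2 Dusp phosphatases rose. Btg2, an antiproliferative protein that recruits mRNA deadenylases, stood at 460.3, 558, 673 and 501 CPM in the FAP DKO libraries and at 948, 902, 792 and 849 in FAP WT. In Misc it lay at 495, 592, 625 and 536 in DKO and at 1196, 1409.8, 1049.7 and 1244 in WT, and for SMP 213 and 248 in DKO and 794 and 752 in WT. All DKO libraries lay below the WT libraries of their population. On the log2 scale, DKO minus WT for Btg2 came to −0.67 ± 0.12 (adjusted p = 0.00057) in FAP, −1.12 ± 0.12 (adjusted p = 3.7e-07) in Misc and −1.74 ± 0.17 (adjusted p = 5.8e-07) in SMP. Btg2 was 1.59-fold lower in FAP, 2.18-fold in Misc and 3.35-fold in SMP, and all 3 calls held with each library left out. Zfp36, or tristetraprolin, which destabilises AU-rich mRNAs, measured 1137, 1441, 1414 and 1384 CPM in the DKO libraries of FAP, beside 2031, 1981, 1831 and 1782 in those of WT. Misc DKO libraries held 1578, 1501, 1358 and 1936 and Misc WT 2613, 2855, 2569 and 2594, while SMP DKO held 476 and 817 and SMP WT 1246 and 1013. In each population, every Zfp36 value in DKO lay below the WT range. DKO minus WT, in log2, gave −0.50 ± 0.14 (adjusted p = 0.019) for FAP, −0.74 ± 0.14 (adjusted p = 0.00050) for Misc and −0.81 ± 0.20 (adjusted p = 0.0056) for SMP. The Zfp36 call was lost in FAP without FAP DKO replicate 1 or FAP WT replicate 1 or 2 (adjusted p from 0.052 to 0.060), and in SMP without SMP DKO replicate 1 or SMP WT replicate 1 (adjusted p from 0.073 to 0.10) and with the compared groups alone in the fit (adjusted p = 0.15). Without SMP DKO replicate 2 the SMP value of Zfp36 was −1.26.

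Dusp5, a nuclear phosphatase of ERK, had 16.7, 21.5, 19.2 and 17.0 CPM in FAP from DKO and 10.05, 6.89, 7.18 and 7.43 in FAP from WT. Dusp5 in Misc was at 26.0, 23.6, 24.1 and 23.8 in DKO and 10.5, 13.5, 14.4 and 12.6 in WT, and in SMP at 31.9 and 28.6 in DKO and 22.5 and 21.9 in WT. All DKO libraries lay above the WT libraries of their population. As log2 differences these were 1.22 ± 0.13 (adjusted p = 1.2e-06) in FAP, 0.94 ± 0.13 (adjusted p = 1.1e-05) in Misc and 0.44 ± 0.17 (adjusted p = 0.067) in SMP. Dusp6, a cytoplasmic phosphatase of ERK, stood at 44.6, 51.1, 59.3 and 50.9 CPM in the FAP DKO libraries and at 35.6, 32.7, 27.4 and 30.1 in FAP WT. Its Misc values came to 113, 134, 135 and 120.4 for DKO and 66.8, 68.9, 76.7 and 76.3 for WT, and its SMP values 69.3 and 73.2 for DKO and 63.9 and 73.0 for WT. Dusp6 in DKO stood above all WT libraries in FAP and Misc, with ranges that overlapped in SMP. The log2 difference of DKO minus WT was 0.71 ± 0.10 (adjusted p = 5.3e-05) in FAP, 0.80 ± 0.10 (adjusted p = 2.6e-06) in Misc and 0.06 ± 0.14 (adjusted p = 0.80) in SMP. Dusp5 was 2.33-fold higher in FAP and 1.92-fold in Misc, and Dusp6 1.64-fold and 1.74-fold. These 4 calls held with each library left out. Neither gene was called in SMP. Dusp1, which acts on stress-activated MAP kinases, fell in SMP, at −0.50 ± 0.17 (adjusted p = 0.035) in log2, a call lost without SMP DKO replicate 1 or SMP WT replicate 1 or 2 (adjusted p from 0.075 to 0.43) and with the compared groups alone in the fit (adjusted p = 0.18). Without SMP DKO replicate 2 the value of Dusp1 was −0.86. Socs3, an inhibitor of cytokine signalling, fell in Misc, at −0.42 ± 0.14 (adjusted p = 0.042) in log2, a call lost without Misc DKO replicate 2 or 3 or Misc WT replicate 1, 2, 3 or 4 (adjusted p from 0.054 to 0.12). Ier2, a nuclear protein of immediate early genes, fell in FAP, at −0.48 ± 0.13 (adjusted p = 0.019) in log2, a call lost without FAP DKO replicate 4 or FAP WT replicate 1 (adjusted p from 0.063 to 0.083). Ier5, which promotes heat shock factor activity, rose in SMP, at 0.75 ± 0.20 (adjusted p = 0.010) in log2, a call lost without SMP DKO replicate 2 or SMP WT replicate 2 (adjusted p from 0.075 to 0.11). In SMP, Socs3 and Ier2 stood at −0.82 and −0.77 without SMP DKO replicate 2, and neither was called in the full fit.

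**Figure D3:**
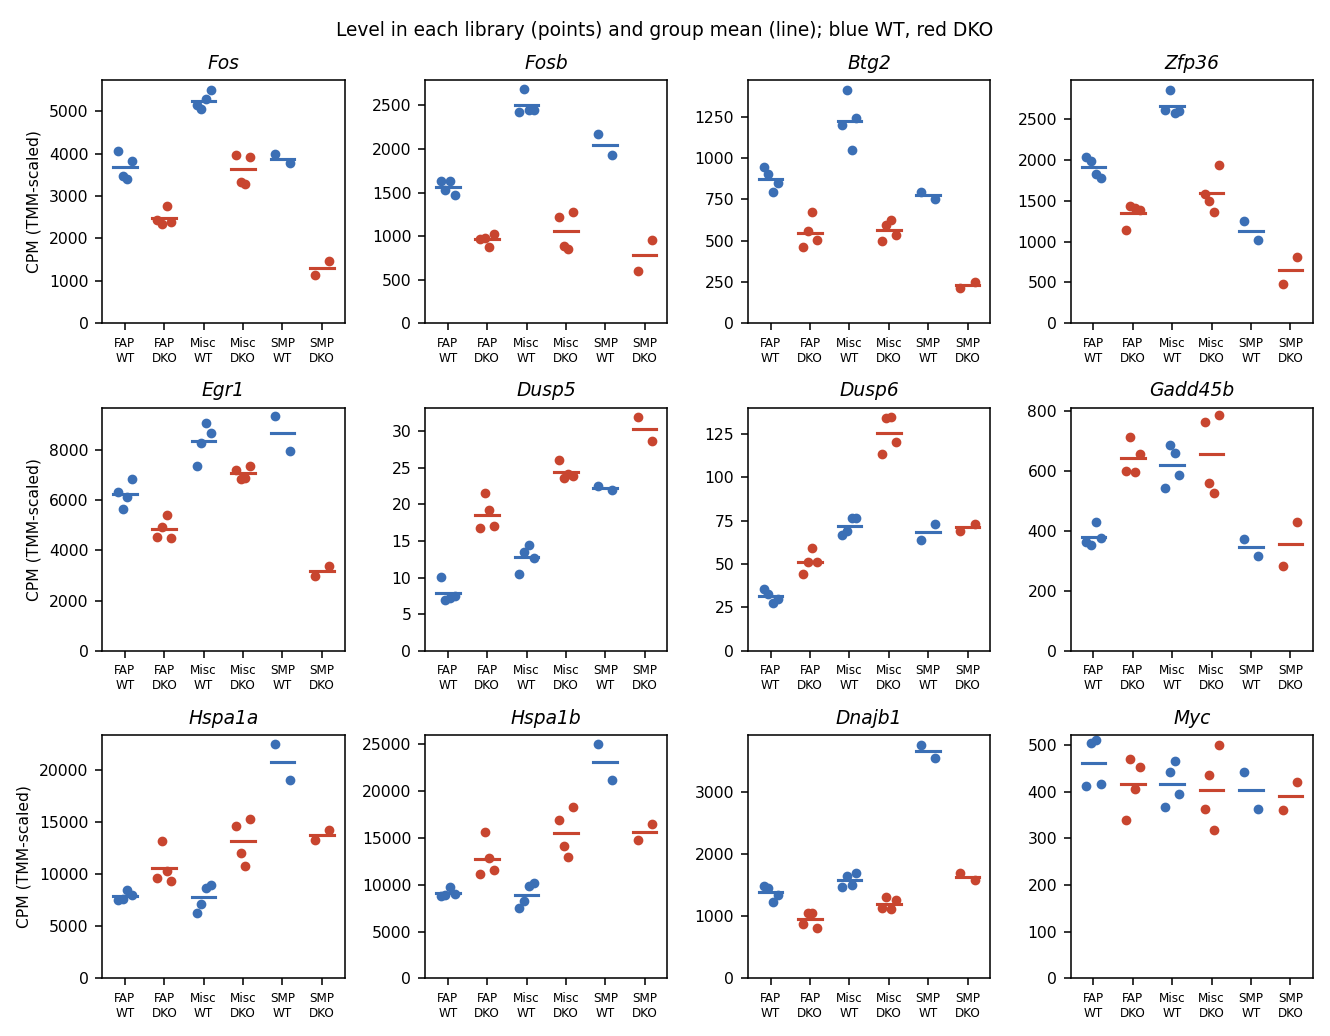
CPM of 12 members in each library (points) with the group mean (line), WT in blue and DKO in red, each axis from 0. Fos, Fosb, Btg2, Zfp36 and Dnajb1 sit lower in DKO in all 3 populations, Dusp5 and Dusp6 higher in FAP and Misc, and Hspa1a and Hspa1b are highest in SMP WT.

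Stress and survival regulators were split. Nfkbiz, a nuclear partner of NF-kappa-B, measured 325, 394, 369.8 and 387 CPM in the DKO libraries of FAP, beside 532, 529.7, 477 and 490.3 in those of WT. In Misc it lay at 192, 213, 174 and 192 in DKO and at 266, 309, 280.2 and 268 in WT, and for SMP 110.3 and 177 in DKO and 319 and 238 in WT. All DKO libraries lay below the WT libraries of their population. Nfkbiz differed by −0.46 ± 0.12 (adjusted p = 0.014) in FAP, by −0.54 ± 0.12 (adjusted p = 0.0026) in Misc and by −0.95 ± 0.17 (adjusted p = 0.00047) in SMP, in log2 of DKO over WT. The SMP call was lost with the compared groups alone in the fit (adjusted p = 0.098). The SMP value of Nfkbiz was −1.35 without SMP DKO replicate 2. Gadd45b, a stress sensor that acts on MAP kinases, had 601, 714, 599 and 658 CPM in FAP from DKO and 363, 354, 429 and 378 in FAP from WT. Misc DKO libraries held 764, 559, 526 and 786 and Misc WT 544, 686, 660.4 and 586, while SMP DKO held 283 and 429.9 and SMP WT 374 and 316. For Gadd45b, DKO values were above all WT libraries in FAP, whereas they overlapped in Misc and SMP. On the log2 scale, DKO minus WT for Gadd45b came to 0.75 ± 0.14 (adjusted p = 0.00078) in FAP, 0.09 ± 0.14 (adjusted p = 0.70) in Misc and 0.05 ± 0.20 (adjusted p = 0.89) in SMP. Gadd45b rose in FAP, and this call held with each library left out. Rhob, a small GTPase of endosomes and the cytoskeleton, stood at 346, 351, 292 and 314 CPM in the FAP DKO libraries and at 492, 418, 446 and 486 in FAP WT. Rhob in Misc was at 443, 396, 410.1 and 408 in DKO and 393, 356, 371 and 381 in WT, and in SMP at 244 and 316 in DKO and 309 and 332 in WT. Each DKO library was below all WT libraries in FAP and above all WT libraries in Misc, and the ranges overlapped in SMP. DKO minus WT, in log2, gave −0.50 ± 0.10 (adjusted p = 0.0012) for FAP, 0.14 ± 0.10 (adjusted p = 0.33) for Misc and −0.20 ± 0.14 (adjusted p = 0.31) for SMP. Rhob fell in FAP. Gadd45g rose in SMP, at 0.63 ± 0.19 (adjusted p = 0.021) in log2, a call lost without SMP DKO replicate 2 or SMP WT replicate 1 or 2 (adjusted p from 0.078 to 0.50) and with the compared groups alone in the fit (adjusted p = 0.18). Ier3, Ppp1r15a, Mcl1 and Sgk1 were not called in any population. Their differences lay between −0.33 (Ppp1r15a in SMP) and 0.47 (Ier3 in SMP).

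The heat shock genes did not move as 1 group. The HSP70 pair rose in Misc, fell in SMP and, for Hspa1b, rose in FAP, whereas their co-chaperone Dnajb1 fell in all 3 populations. Hspa1a measured 9609.8, 13219, 10273 and 9398 CPM in the DKO libraries of FAP, beside 7556, 7624, 8458 and 8037 in those of WT. Its Misc values came to 14604, 12046, 10763 and 15305 for DKO and 6321, 7122, 8661 and 8979 for WT, and its SMP values 13250.1 and 14261 for DKO and 22508 and 19036 for WT. Hspa1a in DKO stood below all WT libraries in SMP and above all WT libraries in FAP and Misc. As log2 differences these were 0.42 ± 0.14 (adjusted p = 0.056) in FAP, 0.76 ± 0.14 (adjusted p = 0.00046) in Misc and −0.59 ± 0.20 (adjusted p = 0.035) in SMP. Hspa1b had 11179, 15614, 12827 and 11525 CPM in FAP from DKO and 8844, 8892, 9762 and 9033 in FAP from WT. In Misc it lay at 16952, 14107, 12958 and 18278 in DKO and at 7517, 8231, 9857 and 10180.0 in WT, and for SMP 14801 and 16539 in DKO and 25065 and 21238 in WT. DKO libraries lay below all WT libraries in SMP and above all WT libraries in FAP and Misc. The log2 difference of DKO minus WT was 0.49 ± 0.14 (adjusted p = 0.023) in FAP, 0.80 ± 0.14 (adjusted p = 0.00021) in Misc and −0.56 ± 0.20 (adjusted p = 0.040) in SMP. The counts of Hspa1b were 1.11 to 1.25 times those of Hspa1a in all 20 libraries. The handling of reads common to this near-identical pair was not given in the sources used here, so the 2 genes are not separate evidence. Summed, the pair differed by 0.46 ± 0.14 (adjusted p = 0.039) in FAP, 0.78 ± 0.14 (adjusted p = 0.00037) in Misc and −0.58 ± 0.20 (adjusted p = 0.041) in SMP. The FAP call of Hspa1b was lost without FAP DKO replicate 2 or FAP WT replicate 1, 2 or 4 (adjusted p from 0.057 to 0.12). Without SMP DKO replicate 2, the SMP values were −0.66 for Hspa1a and −0.65 for Hspa1b. In SMP the Hspa1a call was lost without SMP DKO replicate 1 or 2 or SMP WT replicate 1 (adjusted p from 0.058 to 0.21) and with the compared groups alone in the fit (adjusted p = 0.081), and that of Hspa1b without SMP DKO replicate 1 or 2 or SMP WT replicate 1 or 2 (adjusted p from 0.051 to 0.23) and with DESeq2 size factors (adjusted p = 0.051) and with the compared groups alone in the fit (adjusted p = 0.098). Dnajb1, the HSP40 partner of HSP70, stood at 869, 1060.0, 1048 and 820.0 CPM in the FAP DKO libraries and at 1496, 1453, 1238 and 1351 in FAP WT. Misc DKO libraries held 1128, 1307, 1123 and 1265 and Misc WT 1468, 1645, 1512 and 1692, while SMP DKO held 1698 and 1579 and SMP WT 3766 and 3558. In each population, every Dnajb1 value in DKO lay below the WT range. Dnajb1 differed by −0.54 ± 0.11 (adjusted p = 0.0014) in FAP, by −0.39 ± 0.11 (adjusted p = 0.011) in Misc and by −1.16 ± 0.15 (adjusted p = 1.4e-05) in SMP, in log2 of DKO over WT. All 3 Dnajb1 calls held with each library left out. Leaving out SMP DKO replicate 2, the SMP value was −1.12. Beside the heat shock rise in Misc, muscle fibre markers in Misc summed to 41.96 to 75.7 CPM (DKO) and 27.5 to 34.9 (WT), with 3 of 8 called higher and none at 0 in these libraries. Their part in the result was not tested.

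The transcription factors were then set against the heat shock genes, as the mean log2(CPM + 1) of each class in each library. This is a description over chosen genes, with no test. Transcription factors minus heat shock genes spanned −3.66 to −3.42 in DKO and −3.46 to −3.31 in WT of FAP, which overlapped. In Misc the range was −4.18 to −4.11 in DKO, below the −3.69 to −3.44 of WT, and in SMP it was −4.70 to −4.38 in DKO, above the −4.89 to −4.80 of WT. The DKO minus WT difference of this contrast was −0.18 in FAP, −0.59 in Misc and 0.30 in SMP. The largest SD within a group compared was 0.11, 0.11 and 0.23. In Misc, the factor mean differed by −0.20 and the heat shock mean by 0.39. In SMP both class means were lower in DKO, with −0.47 for the factors and −0.77 for the heat shock genes. In FAP the 2 parts were −0.06 and 0.11. With each library left out, the contrast ranged over −0.23 to −0.15 in FAP, −0.64 to −0.55 in Misc and 0.14 to 0.46 in SMP. The heat shock mean counts Hspa1a and Hspa1b as 2 of its 3 genes, though they are not separate evidence. Dnajb1, its other gene, went the other way from the pair in FAP and Misc. A mean with the pair counted once was not computed, so the part of this double count in the contrast was not tested.

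**Figure D4:**
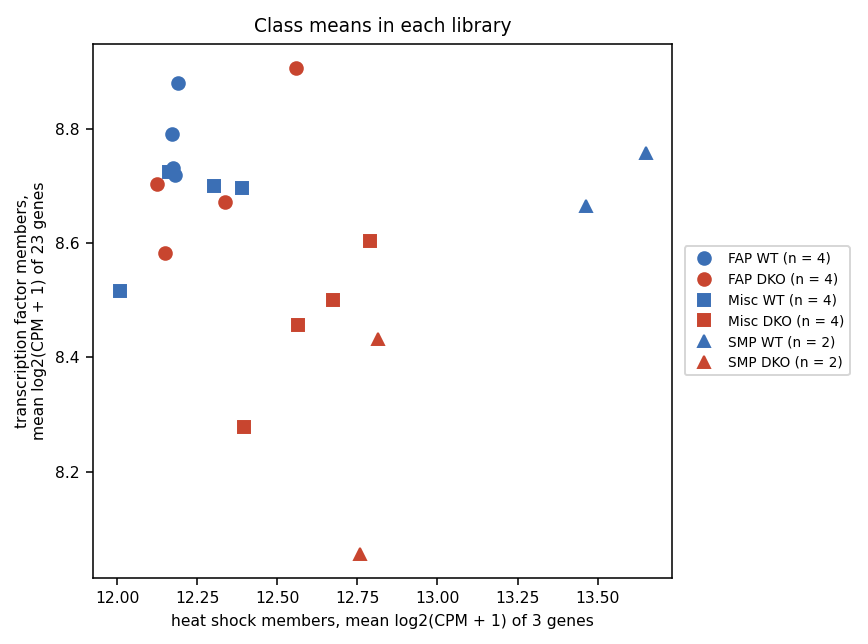
Mean log2(CPM + 1) of the 23 transcription factors (y axis) against that of the 3 heat shock genes (x axis) in each library, by population (shape) and genotype (WT blue, DKO red). SMP WT lies far right, at 13.46 to 13.65 on the heat shock axis, and all Misc DKO libraries lie right of all Misc WT libraries.

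Whether the DKO effect itself differed between populations was tested as a difference of the 2 log2 differences. Higher and lower refer here to the signed value and not to its size. Fos, which fell less in FAP than in SMP, thus counts as higher in FAP. Klf2, called lower in DKO in FAP and not called in SMP, counts as lower in FAP. Comparisons with SMP share the SMP libraries. Between FAP and SMP, 14 members had a higher DKO effect in FAP and 1 a lower one, against 4.92% and 5.42% of all genes. Between Misc and SMP the counts were 8 and 1, against 4.61% and 4.34%. The factors Egr2 (1.24 ± 0.17 (adjusted p = 2.9e-05)), Nr4a3 (1.21 ± 0.20 (adjusted p = 0.00038)), Egr1 (1.08 ± 0.19 (adjusted p = 0.00068)), Nr4a1 (1.02 ± 0.23 (adjusted p = 0.0057)) and Fos (1.00 ± 0.19 (adjusted p = 0.0014)) differed between FAP and SMP, as did Btg2 (1.07 ± 0.21 (adjusted p = 0.0017)). These 6 held with each library left out. All 3 heat shock genes differed too, with 1.02 ± 0.25 (adjusted p = 0.0099) for Hspa1a, 1.05 ± 0.24 (adjusted p = 0.0067) for Hspa1b and 0.62 ± 0.18 (adjusted p = 0.034) for Dnajb1. The calls of Hspa1a and Hspa1b were each lost without SMP WT replicate 1 (adjusted p = 0.068 and 0.052). That of Dnajb1 was lost without FAP DKO replicate 2 or 3 or FAP WT replicate 3 or 4 or SMP DKO replicate 2 or SMP WT replicate 1 or 2 (adjusted p from 0.052 to 0.12) and with the compared groups alone in the fit (adjusted p = 0.060). Jun (0.64 ± 0.19 (adjusted p = 0.029)) was lost without FAP DKO replicate 2 or FAP WT replicate 2 or SMP DKO replicate 1 or SMP WT replicate 1 (adjusted p from 0.052 to 0.12). Maff (0.89 ± 0.24 (adjusted p = 0.019)) was lost without SMP DKO replicate 1 or SMP WT replicate 1 (adjusted p from 0.064 to 0.087). Nr4a2 (0.97 ± 0.29 (adjusted p = 0.036)) was lost without FAP DKO replicate 1 or 4 or FAP WT replicate 1 or 2 or SMP DKO replicate 1 or SMP WT replicate 1 or 2 (adjusted p from 0.052 to 0.16). Dusp5 (0.78 ± 0.22 (adjusted p = 0.025)) was lost without FAP WT replicate 3 or SMP DKO replicate 2 or SMP WT replicate 1 (adjusted p from 0.0504 to 0.089), and Dusp6 (0.65 ± 0.17 (adjusted p = 0.018)) without SMP WT replicate 2 (adjusted p = 0.077). Klf2 alone had a lower effect in FAP (−1.65 ± 0.41 (adjusted p = 0.017)), a call lost without SMP DKO replicate 2 or SMP WT replicate 1 or 2 (adjusted p from 0.053 to 0.18). Its size without SMP DKO replicate 2, which leaves 1 library in that group, was −0.78. Without SMP WT replicate 1, 7 members were called in place of 15.

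Misc against SMP gave 1.36 ± 0.24 (adjusted p = 0.00065) for Hspa1b, 1.36 ± 0.25 (adjusted p = 0.00090) for Hspa1a and 0.77 ± 0.18 (adjusted p = 0.0094) for Dnajb1. The factors Egr1 (1.20 ± 0.19 (adjusted p = 0.00018)), Egr2 (1.11 ± 0.16 (adjusted p = 9.7e-05)) and Fos (1.04 ± 0.19 (adjusted p = 0.00092)) and the phosphatase Dusp6 (0.74 ± 0.17 (adjusted p = 0.0069)) also differed, and these 7 held with each library left out. Nr4a3 (0.65 ± 0.20 (adjusted p = 0.041)) was lost without Misc DKO replicate 1, 2 or 4 or Misc WT replicate 1, 3 or 4 or SMP DKO replicate 1 or SMP WT replicate 1 or 2 (adjusted p from 0.052 to 0.21) and with DESeq2 size factors (adjusted p = 0.054) and with the compared groups alone in the fit (adjusted p = 0.089). Klf2 (−1.47 ± 0.41 (adjusted p = 0.035)) was lost without Misc DKO replicate 2 or 3 or Misc WT replicate 2 or 4. The Klf2 call was also lost without SMP DKO replicate 2 or SMP WT replicate 1 or 2. It was lost with no filter on low counts (adjusted p = 0.058) and with the compared groups alone in the fit (adjusted p = 0.13). The size for Klf2 was −0.61 without SMP DKO replicate 2. Between FAP and Misc, 0 members had a higher effect in FAP and 1 a lower one, against 1.37% and 1.42% of all genes. That member was Rhob, at −0.64 ± 0.14 (adjusted p = 0.0078), which held with each library left out. With genotype and replicate number as a block, since FAP and Misc libraries of 1 number deviate together, 3 members were called. Beside Rhob they were Nr4a2 at 0.79 ± 0.14 (adjusted p = 0.0036) and Nr4a3 at 0.55 ± 0.14 (adjusted p = 0.032), which without the block had 0.79 ± 0.23 (adjusted p = 0.084) and 0.55 ± 0.16 (adjusted p = 0.073). In the edgeR fit without the block, 10 of 42 members had an unadjusted p under 0.05, and the DESeq2 test called 4. The matching shares over all genes are not given here, so neither count is read as an excess among the members.

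**Figure D5:**
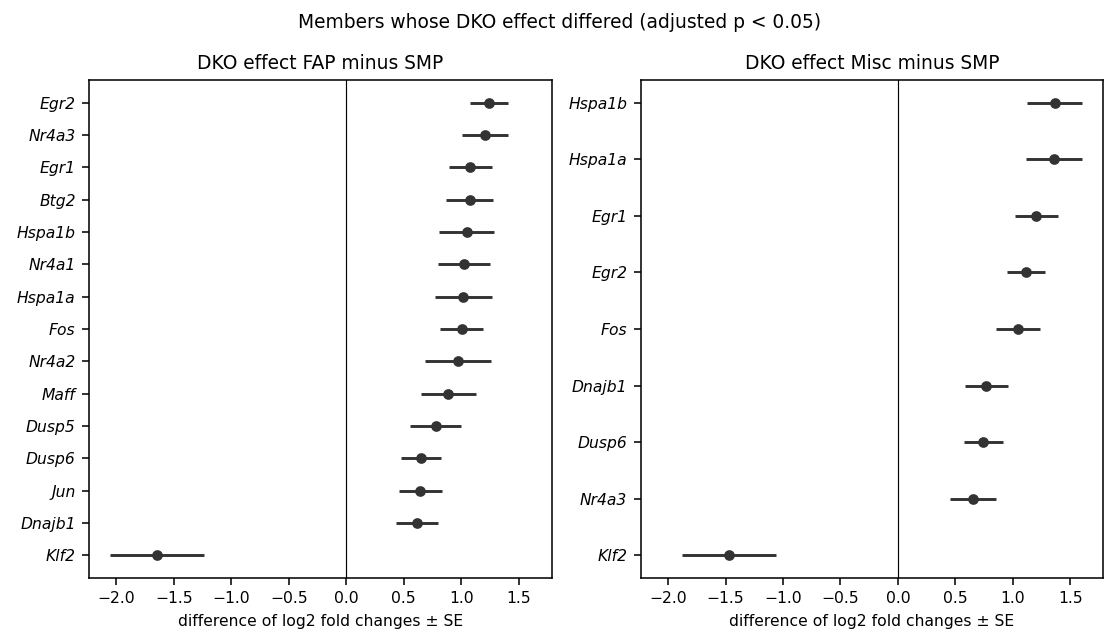
Difference of the DKO effect, FAP minus SMP (left) and Misc minus SMP (right), in log2 with its standard error (x axis), for the members called (y axis). All lie to the right of 0 except Klf2, and the heat shock pair leads the right panel at 1.36.

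The populations were then compared within each genotype. FAP against Misc had 8 members higher in FAP and 14 lower in WT, against 19.3% and 17.6% of all genes, and 12 higher and 9 lower in DKO, against 16.0% and 13.7%. The 8 of 42 higher in WT are close to the share over all genes. Higher in FAP in both genotypes were Fosl1 (2.88 ± 0.38 (adjusted p = 1.9e-06) in WT, 2.56 ± 0.36 (adjusted p = 8.3e-06) in DKO), Nfkbiz (0.85 ± 0.12 (adjusted p = 3.3e-06) in WT, 0.93 ± 0.12 (adjusted p = 1.3e-06) in DKO), Klf2 (0.93 ± 0.22 (adjusted p = 0.0025) in WT, 0.76 ± 0.23 (adjusted p = 0.018) in DKO) and Atf3 (1.00 ± 0.12 (adjusted p = 1.4e-07) in WT, 0.65 ± 0.12 (adjusted p = 8.3e-05) in DKO). Lower in FAP were the phosphatases Dusp6 (−1.20 ± 0.10 (adjusted p = 7.1e-10) in WT, −1.29 ± 0.10 (adjusted p = 2.6e-10) in DKO) and Dusp5 (−0.68 ± 0.13 (adjusted p = 0.00024) in WT, −0.40 ± 0.13 (adjusted p = 0.019) in DKO) and the factors Egr2 (−0.77 ± 0.10 (adjusted p = 4.6e-07) in WT, −0.64 ± 0.10 (adjusted p = 8.9e-06) in DKO) and Jun (−0.66 ± 0.11 (adjusted p = 2.4e-05) in WT, −0.59 ± 0.11 (adjusted p = 0.00013) in DKO). In DKO the Klf2 call was lost without Misc DKO replicate 2 or 3 (adjusted p from 0.057 to 0.058), and with the block by genotype and number (adjusted p = 0.051). The Dusp5 call was lost without FAP DKO replicate 1 or 4 or Misc DKO replicate 1 (adjusted p from 0.060 to 0.062). All 3 NR4A receptors were higher in FAP than in Misc in DKO, from 0.60 to 0.76, and none was called in WT. Rhob, chosen after its values were seen, was higher in FAP in WT (0.30 ± 0.10 (adjusted p = 0.017)) and lower in DKO (−0.35 ± 0.10 (adjusted p = 0.0069)), and the WT call was lost without FAP WT replicate 1 or 4 or Misc WT replicate 2 (adjusted p from 0.052 to 0.071). The heat shock genes did not separate FAP from Misc in WT, where none of 3 was called, and in DKO Dnajb1 was lower in FAP (−0.35 ± 0.11 (adjusted p = 0.015)), a call lost without FAP DKO replicate 1 or 4 or Misc DKO replicate 4 (adjusted p from 0.052 to 0.072).

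FAP against SMP had 14 members higher in FAP and 13 lower in WT, against 31.1% and 31.3% of all genes, and 22 higher and 7 lower in DKO, against 29.2% and 29.6%. The WT counts are near the shares over all genes. In WT all 3 heat shock genes were lower in FAP, at −1.39 ± 0.17 (adjusted p = 1.3e-07) for Hspa1a, −1.34 ± 0.16 (adjusted p = 1.5e-07) for Hspa1b and −1.40 ± 0.13 (adjusted p = 1.1e-09) for Dnajb1. In DKO the pair was not called (−0.37 ± 0.17 (adjusted p = 0.065) and −0.29 ± 0.17 (adjusted p = 0.13)), and Dnajb1 was still lower (−0.79 ± 0.13 (adjusted p = 1.2e-05)). Higher in FAP in both genotypes were Gadd45g (2.20 ± 0.18 (adjusted p = 2.6e-10) in WT, 1.89 ± 0.18 (adjusted p = 4.1e-09) in DKO), Klf2 (2.84 ± 0.31 (adjusted p = 5.6e-07) in WT, 1.19 ± 0.30 (adjusted p = 0.0026) in DKO), Cebpd (1.36 ± 0.26 (adjusted p = 0.00020) in WT, 2.02 ± 0.28 (adjusted p = 5.3e-06) in DKO) and Socs3 (1.45 ± 0.19 (adjusted p = 3.7e-07) in WT, 1.71 ± 0.19 (adjusted p = 5.6e-08) in DKO). Lower, beside Dnajb1, were Egr3 (−1.44 ± 0.13 (adjusted p = 1.2e-09) in WT, −1.01 ± 0.13 (adjusted p = 7.3e-07) in DKO), Dusp5 (−1.49 ± 0.15 (adjusted p = 1.1e-08) in WT, −0.71 ± 0.15 (adjusted p = 0.00032) in DKO) and Dusp6 (−1.12 ± 0.12 (adjusted p = 1.8e-08) in WT, −0.47 ± 0.12 (adjusted p = 0.0020) in DKO). With SMP DKO replicate 2 left out, the DKO values were 2.31 for Gadd45g, 2.06 for Klf2, 2.55 for Cebpd and 2.15 for Socs3. On the lower side they were −0.83 for Dnajb1, −0.94 for Egr3, −0.77 for Dusp5 and −0.42 for Dusp6. Chosen after their values were seen, Egr1 (−0.47 ± 0.13 (adjusted p = 0.0031) in WT, 0.61 ± 0.14 (adjusted p = 0.00055) in DKO) and Nr4a3 (−0.33 ± 0.14 (adjusted p = 0.041) and 0.88 ± 0.15 (adjusted p = 1.9e-05)) were called in opposite directions in the genotypes. Their DKO values without SMP DKO replicate 2 were 0.71 and 1.10, and those of Hspa1a and Hspa1b −0.31 and −0.20. The WT call of Egr1 was lost without SMP WT replicate 1 (adjusted p = 0.097), and that of Nr4a3 without FAP WT replicate 1 or 2 or SMP WT replicate 1 or 2 (adjusted p from 0.060 to 0.14) and with no filter on low counts (adjusted p = 0.098).

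Misc against SMP had 16 members higher in Misc and 16 lower in WT, against 30.6% and 30.0% of all genes, and 22 higher and 7 lower in DKO, against 29.8% and 29.7%. Higher in Misc in both genotypes were Gadd45g (2.07 ± 0.18 (adjusted p = 8.7e-10) in WT, 1.80 ± 0.18 (adjusted p = 8.8e-09) in DKO), Cebpd (1.38 ± 0.26 (adjusted p = 0.00020) in WT, 1.86 ± 0.28 (adjusted p = 1.3e-05) in DKO), Socs3 (1.64 ± 0.19 (adjusted p = 7.7e-08) in WT, 1.598 ± 0.19 (adjusted p = 1.4e-07) in DKO) and Dusp1 (1.26 ± 0.15 (adjusted p = 2.0e-07) in WT, 1.48 ± 0.16 (adjusted p = 2.4e-08) in DKO). Lower were Fosl1 (−3.37 ± 0.41 (adjusted p = 4.2e-07) in WT, −3.62 ± 0.39 (adjusted p = 1.0e-07) in DKO), Egr3 (−1.39 ± 0.13 (adjusted p = 2.8e-09) in WT, −0.92 ± 0.13 (adjusted p = 3.0e-06) in DKO), Cebpb (−0.93 ± 0.23 (adjusted p = 0.0021) in WT, −0.77 ± 0.24 (adjusted p = 0.010) in DKO) and Dnajb1 (−1.21 ± 0.13 (adjusted p = 1.5e-08) in WT, −0.44 ± 0.13 (adjusted p = 0.0048) in DKO). The DKO call of Cebpb was lost without SMP DKO replicate 2 (adjusted p = 0.31). The other DKO values without that library were 2.22 for Gadd45g, 2.38 for Cebpd, 2.04 for Socs3 and 1.84 for Dusp1. They were −3.51 for Fosl1, −0.85 for Egr3 and −0.48 for Dnajb1. Hspa1a and Hspa1b were lower in Misc in WT (−1.42 ± 0.17 (adjusted p = 1.1e-07) and −1.37 ± 0.16 (adjusted p = 1.2e-07)) and not called in DKO (−0.06 ± 0.17 (adjusted p = 0.78) and −0.01 ± 0.17 (adjusted p = 0.97)). Egr2, chosen after its values were seen, was lower in Misc in WT (−0.41 ± 0.11 (adjusted p = 0.0037)) and higher in DKO (0.71 ± 0.12 (adjusted p = 2.2e-05)). Its DKO value was 0.83 without SMP DKO replicate 2, and those of Hspa1a and Hspa1b were 0.00 and 0.08.

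Other genes of the same pathways were counted for comparison. Of 24 other chaperone and heat shock response genes, 4 rose and 0 fell in FAP, 8 rose and 0 fell in Misc and 2 rose and 4 fell in SMP. These counts stand against 5.58% and 5.14% of all genes in FAP, 9.15% and 9.55% in Misc, and 11.8% and 11.2% in SMP. Their median log2 difference was 0.17 in FAP, 0.30 in Misc, 0.02 in SMP, beside −0.01, 0.01 and 0.01 over all genes. In Misc the largest were the HSP70-like Hspa4l (0.84 ± 0.22, adjusted p = 0.013), the small heat shock proteins Hspb8 (0.69 ± 0.13, adjusted p = 0.00049) and Hspb1 (0.58 ± 0.15, adjusted p = 0.0097), and the co-chaperone Stip1 (0.55 ± 0.12, adjusted p = 0.0025), which all held with each library left out. In FAP, Hmox1 (1.03 ± 0.30, adjusted p = 0.039), a haem-degrading stress enzyme, Dnajb9 (0.43 ± 0.12, adjusted p = 0.022), Stip1 (0.39 ± 0.12, adjusted p = 0.039) and Hspa4 (0.37 ± 0.11, adjusted p = 0.033) rose. Each of these 4 calls was lost without FAP DKO replicate 2, without FAP WT replicate 1 and without other libraries. With single libraries left out, the list count in FAP ranged from 1 (without FAP DKO replicate 3) to 5. In Misc it ranged from 6 to 11, and in SMP it was lower than in the full fit whichever library was left out. In SMP, Hmox1 (2.87 ± 0.46, adjusted p = 0.00049) and Hspb8 (2.64 ± 0.19, adjusted p = 6.7e-09) rose, and Dnajb4 (−0.78 ± 0.16, adjusted p = 0.0013) and Hsph1 (−0.68 ± 0.23, adjusted p = 0.035), an HSP70 nucleotide exchange factor, fell. The Hsph1 call was lost without any 1 of the 4 SMP libraries (adjusted p from 0.056 to 0.18). Leaving out SMP DKO replicate 2 gave 2.63 for Hmox1, 2.67 for Hspb8 and −0.71 for Dnajb4.

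Of 49 other early response genes tested from a list of 50, 8 rose and 4 fell in FAP, 2 rose and 8 fell in Misc and 6 rose and 13 fell in SMP, against 5.58% and 5.14% of all genes in FAP, 9.15% and 9.55% in Misc, and 11.8% and 11.2% in SMP. Their medians were 0.06 in FAP, −0.08 in Misc, 0.03 in SMP. In FAP the largest were Ctgf (1.502 ± 0.16, adjusted p = 7.4e-07), a matricellular target of TGF-beta and YAP, Id1 (0.96 ± 0.14, adjusted p = 6.8e-05) and Id2 (0.80 ± 0.09, adjusted p = 2.7e-06), inhibitors of bHLH factors, and Arc (0.84 ± 0.14, adjusted p = 0.00027). In Misc, Dusp14 (1.27 ± 0.22, adjusted p = 0.00023) and Arc (0.86 ± 0.14, adjusted p = 9.2e-05) rose, and Klf9 (−1.06 ± 0.12, adjusted p = 4.4e-07), a target of glucocorticoids, and Irf1 (−1.03 ± 0.13, adjusted p = 2.7e-06), an interferon-induced factor, fell. In SMP, Klf5 (1.59 ± 0.32, adjusted p = 0.0014) rose, and Zfp36l1 (−1.27 ± 0.15, adjusted p = 3.7e-06), a relative of Zfp36, Irf1 (−0.77 ± 0.18, adjusted p = 0.0038) and Trib1 (−0.76 ± 0.20, adjusted p = 0.011) fell. Leaving out SMP DKO replicate 2 gave 1.77 for Klf5, −1.53 for Zfp36l1, −1.18 for Irf1 and −0.81 for Trib1. The Irf1 call was lost without SMP DKO replicate 1 (adjusted p = 0.087), and the Trib1 call without SMP DKO replicate 1 (adjusted p = 0.066) or without SMP WT replicate 1 (adjusted p = 0.12). The count in SMP was lower than in the full fit whichever library was left out. Of 22 upstream kinases and factors, 3 rose and 1 fell in FAP, 2 rose and 1 fell in Misc and 1 rose and 1 fell in SMP, and the same shares of all genes apply, which the Misc and SMP counts of this list do not exceed. Its medians were 0.11 in Misc and −0.05 in SMP, and near 0 in FAP. Crem, a CREB relative with repressor isoforms, rose in FAP (0.97 ± 0.11, adjusted p = 1.4e-06) and in Misc (0.62 ± 0.11, adjusted p = 0.00036), and the kinase Mapk8 rose in Misc (0.47 ± 0.10, adjusted p = 0.0012). In SMP, Mkl1 (0.86 ± 0.21, adjusted p = 0.0052), a serum response factor partner, rose, and the kinase Mapk9 (−0.66 ± 0.13, adjusted p = 0.00077) fell. The values without SMP DKO replicate 2 were 0.82 for Mkl1 and −0.61 for Mapk9. The Mkl1 call was lost without SMP WT replicate 2 (adjusted p = 0.056). Smaller calls, each lost with single libraries left out, were Crtc2 (0.53 ± 0.14, adjusted p = 0.015), Mapk8 (0.34 ± 0.10, adjusted p = 0.022) and Mapk14 (−0.32 ± 0.10, adjusted p = 0.031) in FAP and Braf (−0.30 ± 0.11, adjusted p = 0.048) in Misc. The count of this list fell from 4 to 1 in FAP without FAP DKO replicate 2, rose from 3 to 5 in Misc without Misc DKO replicate 3, and in SMP, where it was 2, was 1 without SMP WT replicate 2.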

How the data were processed

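RNA was measured in 20 libraries of 6 groups. The series design text names OSA, mm10 and RefSeq for mapping. DESeq2 appears, with no version, among tools listed per the submitters' processing notes. The values are whole-number gene counts that the authors deposited, taken unchanged. Counting tool and strand use were not given in the sources used here, and overlapping genes may share reads. Genes were kept by edgeR's filterByExpr (minimum count 10, minimum total 15), which left 14179 of 24393. All 6 groups entered a quasi-likelihood fit with TMM scaling (edgeR 4.0.16, R 4.3.3), with Benjamini-Hochberg adjustment over all genes of 1 comparison and a threshold of 0.05. CPM uses the TMM-scaled totals, and a standard error is the absolute log2 difference divided by the square root of F. Libraries held 5826000 to 17730111 counts. The members and gene lists were chosen with earlier results of these data known. Values in every library are given for members whose call in a DKO comparison held with each library left out, for Fos, Jun, Egr1, Atf3, Myc and the heat shock genes, and for those called between the DKO effects of FAP and Misc. Between populations up to 4 members each way called in both genotypes were named, and from each list up to 4 called genes per DKO comparison. No label says that replicates came from separate animals beyond the word biological, so p-values measure the spread between these libraries. Deviations from group means over all genes correlated at 0.25 to 0.41 between FAP and Misc DKO libraries of 1 number and 0.22 to 0.29 in WT (4 pairs each), against −0.25 to 0.13 and −0.27 to 0.08 where numbers differed. FAP and Misc libraries may therefore be paired by number, which no label states. The main fit does not model this pairing. It enters only the runs with a replicate block. Also run were no filter, each library left out, the compared groups alone, replicate blocks, the HSP70 pair summed, and scaling or Wald test from DESeq2 1.42.0. Per kilobase levels use the union of exons in GENCODE M21. The fit was tested on simulated counts.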

Additional observations from a re-analysis of the deposited data

Results flagged for a closer look

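Only the 21 members given by library were screened for single libraries apart, in groups of 4. For 3 of these members a library stood far from the others. The remaining members were not screened in this way. Fosb read 2686 CPM in Misc WT replicate 2, far from the 2423 to 2453 of the other libraries of its group. Dusp5 read 10.05 CPM in FAP WT replicate 1, far from the 6.89 to 7.43 of the other libraries of its group. Zfp36 read 2855 CPM in Misc WT replicate 2, far from the 2569 to 2613 of the other libraries of its group. Of 84 groups of 4 values, chance alone flags about 1 in 20, and 3 were flagged. Without FAP WT replicate 1, Dusp5 was still called higher in FAP DKO, and without Misc WT replicate 2, Fosb and Zfp36 were still called lower in Misc DKO.

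The DKO effect differed between populations, by edgeR's test of the difference itself, for 1 member between FAP and Misc, 15 between FAP and SMP and 9 between Misc and SMP. Between FAP and Misc it was Rhob (−0.64), in log2. FAP minus SMP gave Btg2 (1.07), Egr1 (1.08), Egr2 (1.24), Fos (1.00), Nr4a1 (1.02), Hspa1b (1.05), Jun (0.64), Klf2 (−1.65), Maff (0.89), Nr4a3 (1.21), Nr4a2 (0.97), Hspa1a (1.02), Dusp5 (0.78), Dusp6 (0.65) and Dnajb1 (0.62). Misc minus SMP gave Egr1 (1.20), Egr2 (1.11), Fos (1.04), Hspa1b (1.36), Klf2 (−1.47), Nr4a3 (0.65), Hspa1a (1.36), Dusp6 (0.74) and Dnajb1 (0.77). A positive value is a signed DKO effect higher in the first population, which includes a smaller fall. The SMP libraries enter both of the latter comparisons.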

How the results depend on the processing

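Direction did not reverse for any member called, in any of the 12 comparisons, under any alternative run. Of 504 member results, 495 kept their side of the threshold with DESeq2 size factors, 485 in the DESeq2 test, 489 with no filter and 466 with the compared groups alone in the fit. Of 42 members, the called count in SMP DKO against WT was 17, and 10 with the compared groups alone. With single libraries left out, the count in FAP was 11 to 17 (17 with all, 11 without FAP WT replicate 1). In Misc it was 13 to 15 (16 with all). No range is given for SMP, where such a fit leaves a lone sample in its group. For the difference of the DKO effect between FAP and Misc, 1 member was called, against 2 with no filter, 3 with the compared groups alone, 4 in the DESeq2 test and 1 to 3 with single libraries left out. Between FAP and SMP the count with single libraries left out was 7 to 18 (15 with all, 7 without SMP WT replicate 1), and between Misc and SMP 7 to 11 (9 with all). The cause was not tested. With the replicate block, by number or by genotype and number, 3 members were called between the DKO effects of FAP and Misc, Rhob, Nr4a2 and Nr4a3. Between FAP and Misc the pairing also brought in Ppp1r15a in both genotypes, Cebpb in WT and Klf10 in DKO, and took out Klf2 in DKO. SMP shares only a number with the others. There the block by genotype and number took out Klf2, Dusp5, Dusp6 and Dnajb1 and brought in Fosl2 between the DKO effects of FAP and SMP. Between DKO and WT, the block brought in Cebpb in FAP (adjusted p = 0.030) and Gadd45g in Misc (adjusted p = 0.046), and took out Socs3 and Jun in Misc. SMP has 2 libraries a group, and SMP DKO the lowest depth. A fit that leaves out 1 SMP library assumes that the lone sample varies like the other groups.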
